A study of Mus musculus with 18 samples.

Results

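The genes described here are 41 genes that supply amino acids and load them onto tRNA, measured by RNA-seq in 3 stages of the mouse B cell lineage with or without Dnmt3a and Dnmt3b, the enzymes that place new DNA methylation. They were chosen by gene symbol from the 21761 genes of the deposited expression table. All 41 symbols were found in it, and 40 of the 41 passed the filter on low values (more than 1 FPKM in at least 2 libraries) that left 11522 genes for testing. The gene missing from the tests was Slc7a11. Here FPKM is the number of fragments per kilobase of exon, scaled to the reads on genes of the library, so levels of different genes can be set side by side.

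Each of the 6 groups held 3 libraries, from mice of both sexes. Most libraries were female in nB and GCB and male in BMPC. Naive B cells (nB) were sorted from lymph nodes of unimmunized mice as B220+ GL7- Fas- cells. Germinal center B cells (GCB) were B220+ Fas+ GL7+ lymph node cells that bound phycoerythrin (PE). CD138+ plasma cells of the bone marrow (BMPC) were not selected for PE binding. Both cell types came from mice taken 30 days after immunization with PE in complete Freund's adjuvant, and each GCB library pooled cells of 2 mice. Dnmt3-deficient mice were Dnmt3a fl/fl Dnmt3b fl/fl and carried a Cre that is active in B cells. Dnmt3-sufficient mice had the same floxed alleles without Cre, so all 18 libraries came from floxed animals on a mixed B6;129S4 background, 8 to 12 weeks old at the start. Effects of Cre itself and of the deletion cannot be told apart.

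Cells obtain amino acids by making them, by importing them, or by breaking down protein. When they run short, or when the endoplasmic reticulum is overloaded, kinases phosphorylate the translation factor eIF2α, general translation falls and the transcription factor ATF4 is made, which binds composite C/EBP-ATF elements near genes for amino acid synthesis, transport and tRNA charging. Each aminoacyl-tRNA synthetase joins 1 amino acid to its tRNAs, except that Eprs serves both glutamate and proline. Several of the cytosolic enzymes sit together in the multi-synthetase complex. Germinal center B cells divide fast, whereas plasma cells have stopped dividing and secrete antibody at a high rate.

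The element was searched for as the letters TGATGNAA on both strands in the window from 250 bases before to 50 bases after each gene's start (RefSeq, GRCm38.p6, 1 motif searched). A window was held for 31 of the 41 genes, and 11 of those 31 (35.5%) contained the letters, against 1219 of 27025 (4.51%) of all genes with such a window and 1304 of 32851 (3.97%) windows counted singly. The 11 were Trib3 and Chac1 of the stress response genes, Asns and Pycr1 of the synthesis genes, Slc7a11 and Slc1a4 of the transporters, and Iars, Aars, Gars, Tars and Yars of the synthetases. No window was used for Slc7a5, Slc7a3, Slc1a5, Lars, Rars, Cars, Hars, Nars, Vars and Wars. A match is a description of the letters and not a measurement of binding. The windows of 4 genes are printed 5′ to 3′ on the gene's strand with the matched letters in capitals. Asns, Chac1 and Pycr1 are shown because they hold the letters and were called higher in BMPC than in both other cell types. Slc3a2 was called higher than in both too, but its window does not hold the letters. Slc7a11 is shown because it holds the letters in both orientations and was close to undetected in every library. The Asns window is chr6:7693160-7693459 on the minus strand, Chac1 is chr2:119350992-119351291 on the plus strand, Pycr1 is chr11:120643699-120643998 on the minus strand and Slc7a11 is chr3:50443564-50443863 on the minus strand. The first matched base lies at -23 from the start in Asns, -193 in Chac1, -103 in Pycr1, and -66 and -47 in Slc7a11.
Asns: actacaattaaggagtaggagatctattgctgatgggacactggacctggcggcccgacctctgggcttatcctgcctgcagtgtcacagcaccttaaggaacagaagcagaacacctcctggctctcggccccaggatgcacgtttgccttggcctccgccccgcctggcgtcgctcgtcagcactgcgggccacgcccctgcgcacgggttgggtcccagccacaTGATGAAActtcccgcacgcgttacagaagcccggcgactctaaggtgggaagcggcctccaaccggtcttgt
Chac1: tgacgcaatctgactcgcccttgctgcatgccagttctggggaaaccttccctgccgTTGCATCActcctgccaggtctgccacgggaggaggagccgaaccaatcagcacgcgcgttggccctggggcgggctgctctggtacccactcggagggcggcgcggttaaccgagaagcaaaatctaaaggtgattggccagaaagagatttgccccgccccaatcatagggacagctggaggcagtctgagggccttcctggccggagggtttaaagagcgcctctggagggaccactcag
Pycr1: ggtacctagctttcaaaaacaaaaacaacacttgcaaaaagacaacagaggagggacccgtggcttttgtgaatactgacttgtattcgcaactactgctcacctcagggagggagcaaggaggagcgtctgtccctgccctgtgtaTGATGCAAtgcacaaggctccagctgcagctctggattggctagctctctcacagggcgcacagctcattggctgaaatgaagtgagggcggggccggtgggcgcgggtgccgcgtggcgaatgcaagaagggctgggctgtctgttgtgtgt
Slc7a11: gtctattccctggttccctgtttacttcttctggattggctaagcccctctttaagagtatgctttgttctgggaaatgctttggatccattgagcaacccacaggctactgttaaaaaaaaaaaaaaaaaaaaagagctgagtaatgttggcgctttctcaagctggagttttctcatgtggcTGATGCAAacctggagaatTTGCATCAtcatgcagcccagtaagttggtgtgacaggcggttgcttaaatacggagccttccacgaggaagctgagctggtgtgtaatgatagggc

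Depth and spread differed by cell type, which bears on every BMPC value given here. Reads on genes numbered 6692516 to 8987922 in nB libraries, 7644544 to 8903872 in GCB and 1355231 to 3803197 in BMPC, and 891 to 1252, 680 to 1242 and 2991 to 4615 of the tested genes were at 0 in them. The median SD of the tested members within a group, on the log2(FPKM + 1) scale, was 0.33 and 0.34 for nB (sufficient and deficient), 0.15 for both GCB groups, and 0.73 and 0.60 for BMPC. Sums over marker lists of 8 genes each went with the sorting labels. Summed FPKM of BMPC markers was 19040 to 51660 in BMPC against at most 1608 elsewhere, and GCB markers summed to 1298 to 1498 in GCB against at most 83.5. Most of the BMPC sum was Jchain, with a median of 27690 beside 31920 for the sum. Every gene of these lists had its highest median in its own cell type. Irf4 differed little, with medians of 32.6 in BMPC and 27.1 in nB, as did Bcl6, with 35.8 in GCB and 28.0 in nB. BMPC libraries also held more RNA of markers of other marrow cells. Neutrophil markers summed to 9.37 to 595 FPKM and were at 0 in all nB and GCB libraries, with medians of 93.3 for S100a8, 57.3 for Ngp, 52.0 for S100a9 and 13.3 for Mpo and of 0 for Elane, Ltf, Camp and Lcn2. Erythroid markers summed to 182 to 2893 FPKM in BMPC and at most 289.8 elsewhere. Early B cell markers summed to 467 to 888 FPKM in BMPC and at most 379 elsewhere, with a median of 329 for Dntt against 4.54 in nB and 0 in GCB. Vpreb3 went the other way, with medians of 231 in nB, 327 in GCB and 199 in BMPC. The remaining BMPC medians were 29.2 for Cd93, 13.3 for Igll1, 4.67 for Rag2, 4.45 for Vpreb1, 1.29 for Vpreb2 and 0.041 for Rag1. T cell markers summed to 55.4 to 198 FPKM in BMPC, 29.5 to 118 in nB and at most 5.56 in GCB, where the BMPC medians were 97.4 for Cd3g, 39.5 for Cd3d and 13.2 for Cd3e and 0 for Cd4, Cd8a and Cd8b1. Macrophage markers summed to 63.5 to 227 FPKM in BMPC and at most 73.9 elsewhere, with Cd68 at a median of 93.0 and Lyz2 at 19.1, while C1qc and Mertk were at 0 in all 18 libraries. The part of these cells in the BMPC differences was not tested. FPKM of Dnmt3a and Dnmt3b cover whole genes while the deletion removes exons of the catalytic domain, so they do not check the genotype. Dnmt3a was at 2.35 to 5.18 FPKM in sufficient and 2.24 to 4.34 FPKM in deficient nB, and Dnmt3b at 1.18 to 6.41 and 0.521 to 8.15 FPKM. Neither gene passed in any cell type (limma adjusted p 0.401 to 1).

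**Figure D1:**
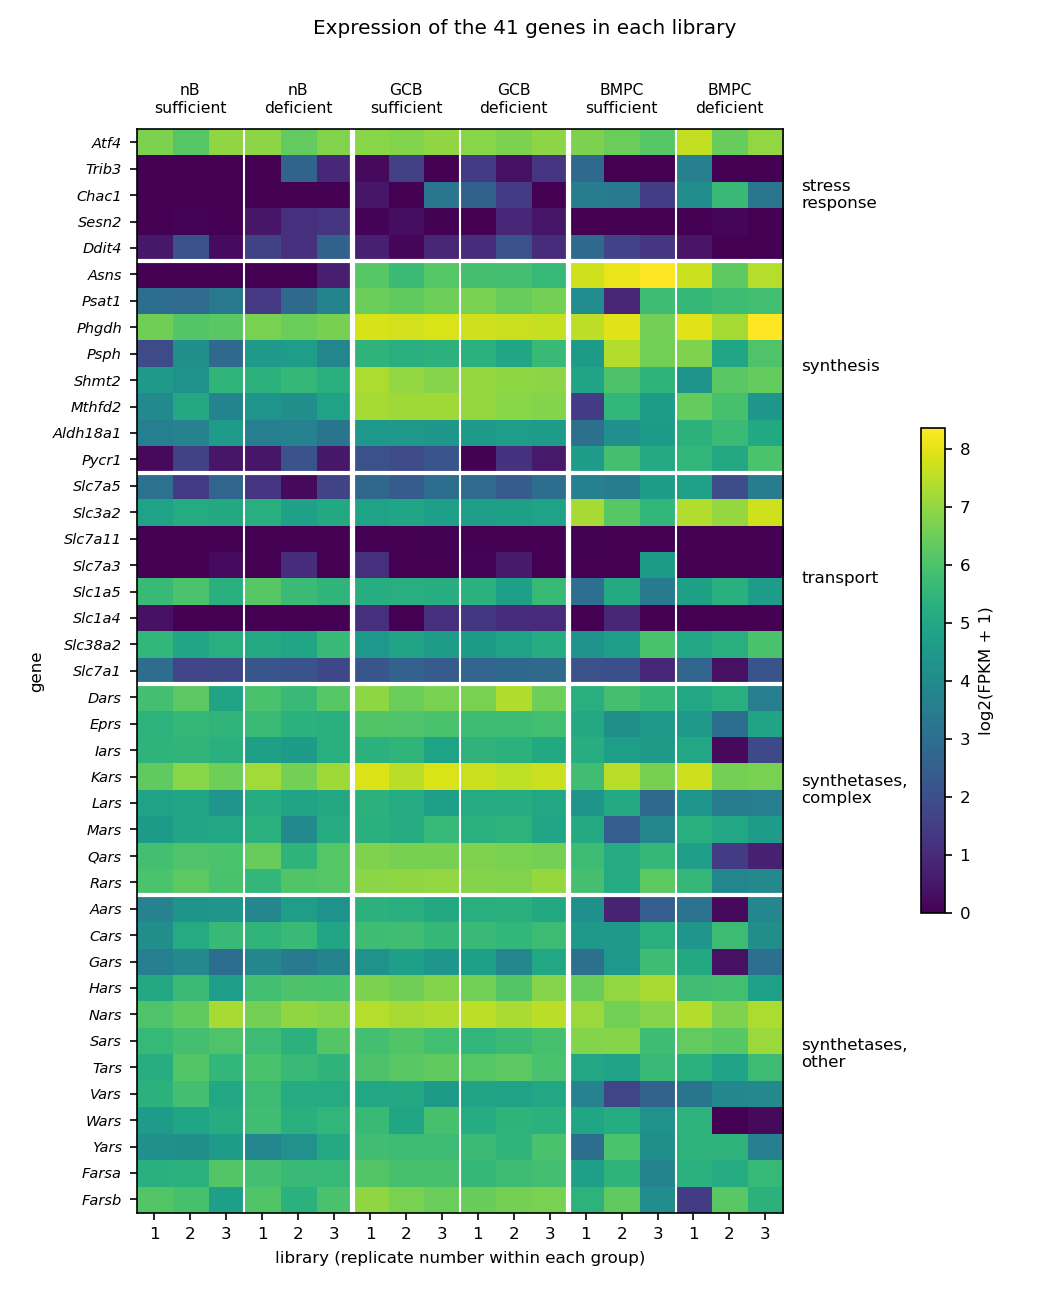
Level of each of the 41 genes (1 line per gene, by role) in each of the 18 libraries (ordered by cell type and genotype) as log2(FPKM + 1), with brighter colours for higher levels. The synthesis genes brighten from nB to GCB and BMPC, and BMPC libraries differ more among themselves than nB or GCB libraries do.

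In germinal center B cells the genes for making serine, one-carbon units and asparagine stood far above naive B cells, while transporters and most synthetases moved less. Of the 40 genes tested, 8 were higher in GCB than in nB and 0 were lower (limma on log2(FPKM + 1), Benjamini-Hochberg adjusted p of at most 0.05 and a log2 difference of at least 1). Over all 11522 genes tested, 9.47% were called higher and 12% lower. The median log2 difference was 0.60 over the 40 genes and -0.13 over all tested genes. By role the calls were 6 of 8 synthesis genes, 0 of 5 stress response genes, 0 of 7 transporters and 2 of 20 synthetases. In bulk RNA, fewer cells of a type and less RNA per cell cannot be told apart, which holds for every comparison here. Cell type is also tied to immunization and, for BMPC, to tissue, and these cannot be told apart either. Sex is tied to cell type in part, with more male libraries in BMPC than in nB or GCB.

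Asns (Entrez 27053, mm9 chr6:7625169-7643254), asparagine synthetase, separated the cell types most. It was at 0 FPKM in 5 of the 6 nB libraries and at 0.611 FPKM, from 9 reads, in the remaining one. The 6 GCB libraries lay between 47.6 and 70.8 FPKM with a median of 57.5. No GCB library came near an nB library, and the log2 difference was 5.78 ± 0.28 (SE, limma adjusted p = 1.97e-10).

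Serine is made from a glycolytic intermediate in 3 steps, by the products of Phgdh, Psat1 and Psph in that order. Phgdh (236539, chr3:98117093-98143913) was at 69.1 to 101.0 FPKM in nB and 196.6 to 235 FPKM in GCB. Psat1 (107272, chr19:15979168-16021827) was at 1.62 to 12.3 FPKM in nB, median 6.84, and 78.3 to 99.99 FPKM in GCB, median 89.5. Psph (100678, chr5:130271434-130293129) was at 2.82 to 24.3 FPKM in nB and 29.1 to 48.2 FPKM in GCB. The libraries of the 2 cell types did not overlap for any of these genes. Psat1, the middle step, had the lowest mean of the 3 in nB and rose most, by a log2 difference of 3.61 ± 0.59 (adjusted p = 0.000176), a 12.4-fold difference of means. Phgdh rose by 1.31 ± 0.22 (adjusted p = 0.000206) and Psph by 1.66 ± 0.47 (adjusted p = 0.0136), which did not pass in the deficient groups alone (0.95, adjusted p = 0.430).

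Shmt2 and Mthfd2 encode the mitochondrial enzymes that take one-carbon units from serine and oxidize them. Shmt2 (108037, chr10:126954195-126959491) had a mean of 34.4 ± 11.4 FPKM in nB and 128 ± 16.0 FPKM in GCB (SD, n = 6 each). Mthfd2 (17768, chr6:83255685-83267600) was at 12.3 to 31.8 FPKM in nB and 111 to 148 FPKM in GCB. Again no library of one cell type reached the other, with log2 differences of 1.93 ± 0.33 (adjusted p = 0.000280) for Shmt2 and 2.70 ± 0.53 (adjusted p = 0.00094) for Mthfd2. The proline genes did not pass: Aldh18a1, for the first enzyme of the route from glutamate, had means of 13.0 FPKM in nB and 22.2 FPKM in GCB, and Pycr1, for the last, 1.16 and 1.91 FPKM.

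Among the 20 cytosolic synthetases, 19 had a higher mean log2 level in GCB, with Vars (valine) the exception, but most differences were under 1 on the log2 scale. The median was 0.58 over the 8 genes of the multi-synthetase complex, 0 of which were called, and 0.61 over the 12 other synthetase genes. Yars (107271, chr4:128867004-128896851, tyrosine) was at 13.6 to 33.3 FPKM in nB and 43.0 to 60.6 FPKM in GCB, a log2 difference of 1.36 ± 0.44 (adjusted p = 0.028). Hars (15115, histidine) had means of 48.3 ± 16.4 and 97.0 ± 16.6 FPKM (SD, n = 6 each), a log2 difference of 1.05 ± 0.24 (adjusted p = 0.00349). Both sat near a threshold: leaving out any 1 of 9 libraries removed the call of Yars, and the difference of Hars was 0.94 without sufficient nB replicate 3 and 0.97 without deficient GCB replicate 3. Counting all 40 genes, 16 had every GCB library above every nB library and 0 had the reverse, shares that stand beside 13.2% and 14.4% of all tested genes.

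**Figure D2:**
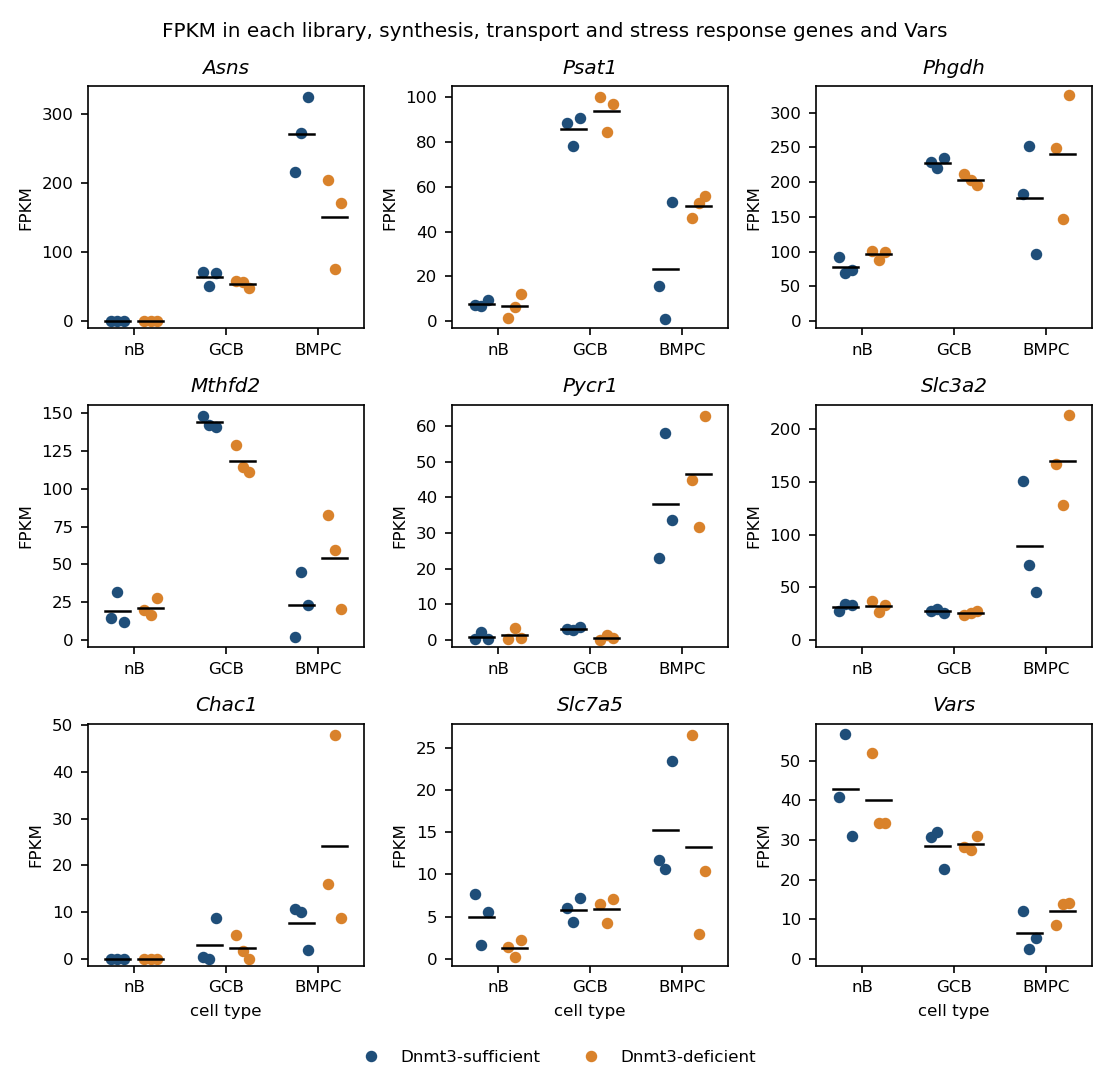
FPKM of 9 genes in each library (points, 3 per group) for nB, GCB and BMPC of both genotypes, on linear axes that include 0, with bars at group means. Psat1 and Mthfd2 peak in GCB, Asns, Pycr1, Slc3a2 and Chac1 peak in BMPC, and Vars is lowest in BMPC.

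In plasma cells several synthesis genes stood above nB, joined by Pycr1 of the proline route and both chains of the leucine transporter, while several synthetases were lower. Against nB, 8 of the 40 genes were higher in BMPC and 7 were lower, where 9.43% of all tested genes were called higher and 39.3% lower. The median log2 difference was 0.03 over the 40 genes and -0.79 over all tested genes. Against GCB, 4 were higher and 14 lower, where 7.72% and 33.7% of all tested genes were called, with medians of -0.87 and -0.66. The 3 cell type comparisons share libraries, so their values are given side by side and are not independent of each other. All 5 synthesis genes that passed against nB were higher, and the 7 lower ones were Slc1a5 and 6 synthetases. Libraries did not overlap for 4 genes higher than nB (Chac1, Asns, Pycr1 and Slc3a2) and 2 lower (Eprs and Vars), beside 6.01% and 18.8% of all tested genes.

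Of the stress response genes, 1 of 5 passed in BMPC. Chac1 (69065, chr2:119176965-119180117), a glutathione-degrading enzyme, was at 0 in all 6 nB libraries. In GCB it was at 0.430, 0 and 8.66 FPKM in sufficient and 5.05, 1.66 and 0 FPKM in deficient libraries. In BMPC it was at 10.7, 10.1 and 1.93 FPKM in sufficient and 16.0, 48.0 and 8.72 FPKM in deficient libraries. Every BMPC library was thus above every nB library, while BMPC and GCB overlapped. Taking 3 reads per library as the floor for nB, the BMPC mean was at least 63.2-fold higher (limma adjusted p = 9.23e-05), and against GCB the log2 difference was 2.29 ± 0.59 (adjusted p = 0.00462). The call against GCB was lost in the sufficient groups alone (1.595, adjusted p = 0.168) and with weights per library or per cell type. Such floors cover counting error only.

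Atf4 itself (11911, chr15:80085614-80087970) had means of 101 ± 21.6, 114 ± 7.23 and 110.2 ± 43.4 FPKM in nB, GCB and BMPC (SD, n = 6 each) and passed in no comparison. Its amount of RNA does not measure its translation, the step known to be regulated. The pseudokinase gene Trib3 was at 0 in 4 nB, 1 GCB and 4 BMPC libraries and reached 11.4 FPKM. Sesn2 and Ddit4, whose products restrain the growth kinase mTORC1, stayed at or under 1.39 and 6.22 FPKM in every library.

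Asns was higher again in BMPC than in GCB. Sufficient BMPC libraries were at 216, 273 and 324 FPKM and deficient ones at 204, 76.2 and 172 FPKM, against a highest GCB value of 70.8 FPKM. All 6 BMPC libraries were above all GCB libraries, the lowest by a small margin. The means were 211 ± 85.4 and 58.9 ± 9.66 FPKM (SD, n = 6 each), a 3.58-fold difference with a log2 difference of 1.71 ± 0.28 (adjusted p = 9.43e-05).

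Pycr1 (209027, chr11:120497026-120505083), whose product makes proline in mitochondria, was the second gene of this kind. It was at 0.162 to 3.39 FPKM in nB and 0.0324 to 3.58 FPKM in GCB. Sufficient BMPC libraries were at 22.9, 58.1 and 33.8 FPKM and deficient ones at 44.8, 31.7 and 62.8 FPKM. The nB and GCB ranges coincided and the BMPC range lay wholly above both. The mean was 36.5-fold that of nB (log2 difference 4.43 ± 0.40, adjusted p = 1.36e-07) and 22.2-fold that of GCB (4.02 ± 0.40, adjusted p = 5.63e-07).

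The serine and one-carbon genes split in BMPC. Phgdh stayed near its GCB level, at 97.1 to 326 FPKM with a median of 216, and was above nB by 1.16 ± 0.22 on the log2 scale (adjusted p = 0.000277). Psph ranged from 22.2 to 167 FPKM with a median of 79.8 and was above nB by 2.38 ± 0.47 (adjusted p = 0.000448), which did not pass in the deficient groups alone (1.58, adjusted p = 0.0676). Neither passed against GCB (log2 differences -0.15 ± 0.22 and 0.72 ± 0.47). Psat1 lay between the other cell types, at 15.6, 0.873 and 53.1 FPKM in sufficient and 45.9, 52.6 and 56.0 FPKM in deficient BMPC. It was below every GCB library in all 6 (log2 difference -1.86 ± 0.59, adjusted p = 0.0155) and above nB on average (1.76 ± 0.59, adjusted p = 0.018). The call against nB was lost without deficient nB replicate 1 (adjusted p = 0.0548) and within the sufficient groups alone (log2 difference 0.47, adjusted p = 0.690), where the library at 0.873 FPKM lies. The call against GCB was lost in the deficient groups alone (-0.85, adjusted p = 0.453).

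Both mitochondrial one-carbon genes were lower in BMPC than in GCB and close to nB. Mthfd2 was at 1.76, 45.0 and 23.0 FPKM in sufficient and 82.5, 59.9 and 20.5 FPKM in deficient BMPC. Its BMPC libraries overlapped nB and stayed under the lowest GCB library (log2 difference from GCB -2.32 ± 0.53, adjusted p = 0.00182). In the deficient groups alone that difference was -1.32 and did not pass (adjusted p = 0.186). Shmt2 ranged from 18.8 to 81.7 FPKM in BMPC and was also under all GCB libraries (-1.47 ± 0.33, adjusted p = 0.00166). Summed over the 8 synthesis genes, nB libraries had 150 to 199 FPKM, GCB libraries 633 to 762 and BMPC libraries 497 to 876, so the GCB and BMPC sums overlapped.

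Of the 7 transporters tested, Slc3a2 and Slc7a5 were higher in BMPC than in nB. Slc3a2 (17254, chr19:8781372-8797859) encodes the heavy chain CD98, which carries light chains such as the leucine transporter LAT1 to the surface, and Slc7a5 (20539, chr8:124405052-124431594) encodes LAT1. Slc3a2 was at 26.5 to 37.4 FPKM in nB and 24.2 to 29.1 FPKM in GCB. In BMPC it was at 151, 71.5 and 45.6 FPKM in sufficient and 167, 129 and 214 FPKM in deficient libraries. All 6 were above every nB and GCB library, with folds of 4.07 over nB (log2 difference 1.83 ± 0.26, adjusted p = 1.94e-05) and 4.86 over GCB (2.07 ± 0.26, adjusted p = 6.86e-06).

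Slc7a5 was lower and more scattered. It was at 0.160 to 7.69 FPKM in nB, 4.24 to 7.14 FPKM in GCB, and 11.7, 10.6 and 23.4 FPKM in sufficient with 26.5, 2.90 and 10.4 FPKM in deficient BMPC. Deficient BMPC replicate 2 lay within the nB range and the other 5 lay above it. The log2 difference from nB was 1.94 ± 0.47 (adjusted p = 0.00229), and from GCB 0.92 ± 0.47 (adjusted p = 0.116). Within the sufficient groups alone the difference from nB was 1.52 (adjusted p = 0.0790).

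Slc1a5 (20514, chr7:17366695-17383623), a glutamine and neutral amino acid transporter, went the other way. It was at 38.0 to 71.7 FPKM in nB and 25.5 to 48.6 FPKM in GCB. In BMPC it was at 7.26, 33.3 and 9.99 FPKM in sufficient and 25.5, 38.8 and 23.4 FPKM in deficient libraries, with 1 of the 6 reaching the nB range. The log2 difference from nB was -1.33 ± 0.32 (adjusted p = 0.00238). Within the deficient groups alone it was -0.90 (adjusted p = 0.129). Slc38a2, another neutral amino acid transporter, and Slc7a1, an arginine and lysine transporter, passed in no comparison, with means of 37.4, 26.3 and 38.9 FPKM and of 3.56, 5.17 and 2.77 FPKM in nB, GCB and BMPC.

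The remaining transporters were close to undetected. Slc7a11 (26570, chr3:50168858-50247535), the cystine transporter, was at or under 3 reads in all 18 libraries, with a highest value of 0.0405 FPKM. Slc7a3, a further arginine and lysine transporter, was at 22.5 FPKM in sufficient BMPC replicate 3, at 0 in the other 5 BMPC libraries and at most 1.23 FPKM elsewhere. Slc1a4, a neutral amino acid transporter, was at 0 in 5 nB and 5 BMPC libraries and reached 1.56 FPKM in GCB.

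**Figure D3:**
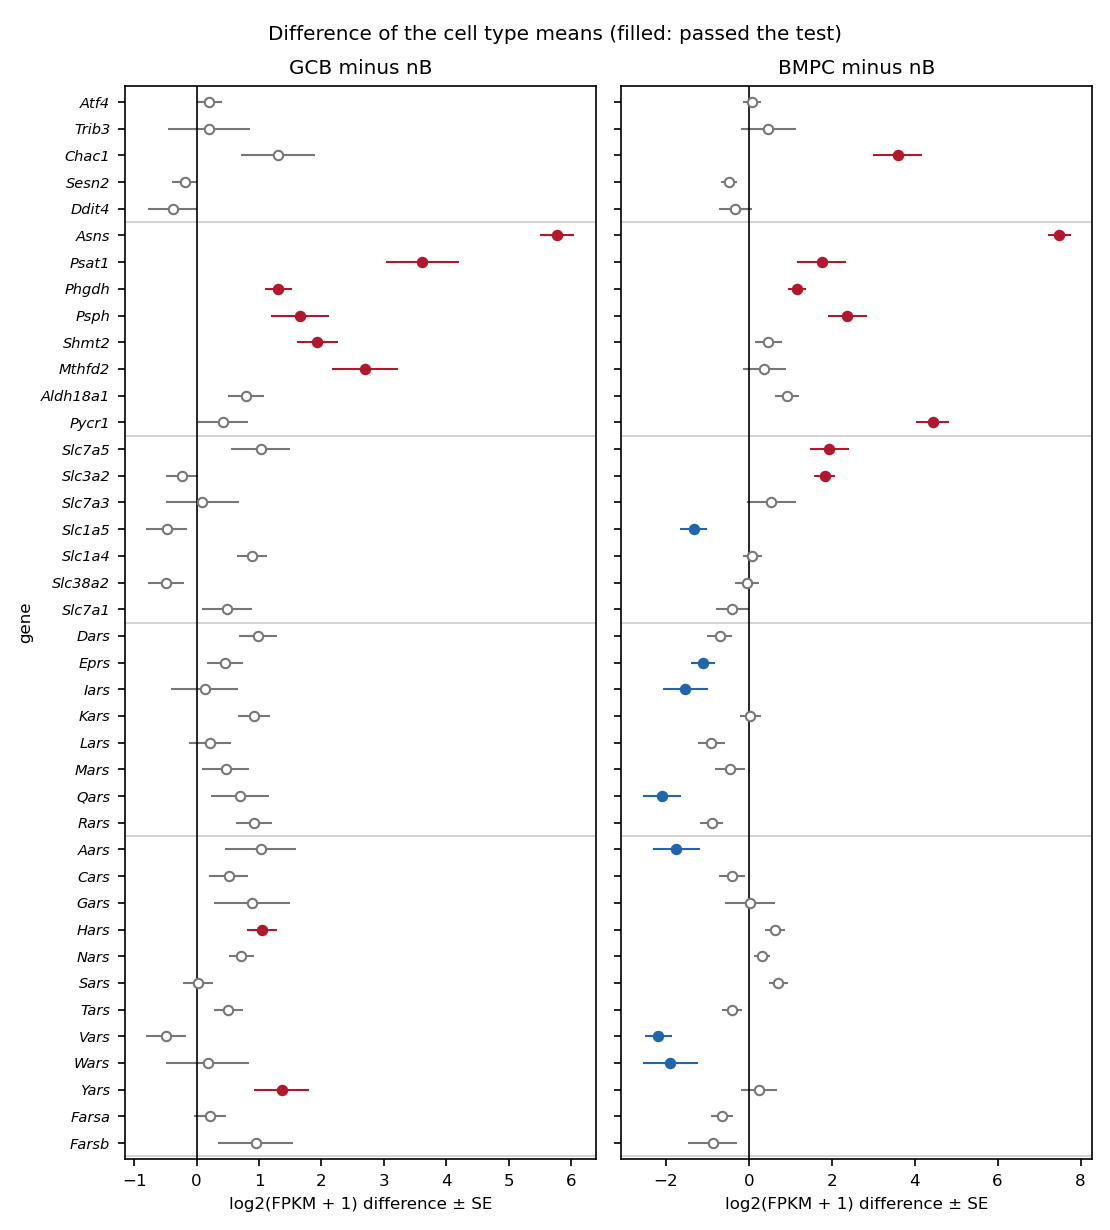
Difference in log2(FPKM + 1) for the 40 tested genes, GCB minus nB and BMPC minus nB, as points with standard error bars, filled where the gene passed (red higher, blue lower). Differences from nB to GCB are mostly above 0, and those from nB to BMPC spread to both sides, with synthetases mostly below 0.

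The synthetases parted from the synthesis genes in BMPC. Of 20, 6 were lower than in nB and 0 higher, with a median log2 difference of -0.68, and 11 were lower than in GCB and 0 higher, with a median of -1.12. The medians over all tested genes for the same comparisons were -0.79 and -0.66, on the 2 sides of the synthetases' values. Of all tested genes 39.3% were called lower than in nB, a larger share than 6 of 20. Against GCB it was 33.7%, a smaller share than 11 of 20. Those of the multi-synthetase complex had medians of -0.90 against nB and -1.61 against GCB, with 3 and 6 of 8 called lower. The 12 others had medians of -0.41 and -0.92, with 3 and 5 called. Whether the complex differs from the other synthetases was not tested.

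**Figure D4:**
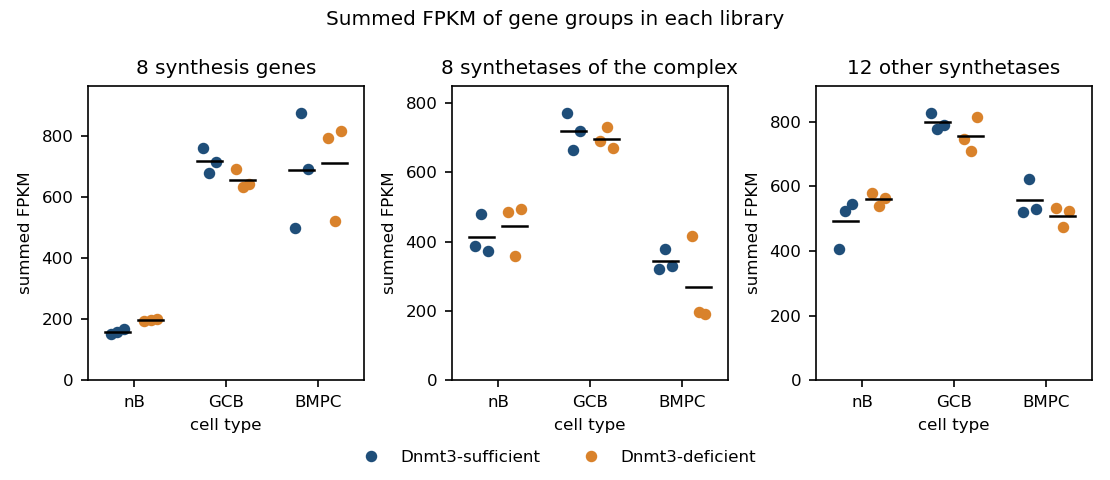
Summed FPKM per library (points, 3 per group) of the 8 synthesis genes, the 8 synthetases of the complex and the 12 other synthetase genes, on linear axes. For the complex genes nB libraries sum to 357 to 494, GCB libraries to 663 to 771 and BMPC libraries to 190 to 417, so the GCB libraries stand alone at the top while BMPC and nB overlap.

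Vars (22321, chr17:35137932-35153267), the valine enzyme, fell most in BMPC against nB. It was at 30.9 to 56.6 FPKM in nB and 22.6 to 32.0 FPKM in GCB. Sufficient BMPC libraries were at 12.0, 2.37 and 5.21 FPKM and deficient ones at 8.48, 13.8 and 14.2 FPKM, all under every nB and GCB library. The log2 difference was -2.18 ± 0.32 from nB (adjusted p = 2.52e-05) and -1.69 ± 0.32 from GCB (adjusted p = 0.000355), and the one from nB held in each genotype alone (-2.71 and -1.65, adjusted p = 0.000176 and 0.00808).

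The other 5 called against nB were Eprs (glutamate and proline, -1.10 ± 0.28, adjusted p = 0.0037), Iars (isoleucine, -1.53 ± 0.54, adjusted p = 0.0239), Qars (glutamine, -2.10 ± 0.46, adjusted p = 0.00118), Aars (alanine, -1.75 ± 0.57, adjusted p = 0.0161) and Wars (tryptophan, -1.89 ± 0.66, adjusted p = 0.0236). Of these, Iars, Qars and Wars rested on few libraries. Iars was at 36.2, 24.8 and 22.4 FPKM in sufficient and 30.8, 0.168 and 2.61 FPKM in deficient BMPC. Wars was at 29.2, 35.3 and 17.9 FPKM in sufficient and 41.1, 0 and 0.149 FPKM in deficient BMPC. For both genes, deficient replicates 2 and 3 stood far below the other 4 BMPC libraries. In the sufficient groups alone the log2 difference from nB was -0.58 for Iars, -0.49 for Qars and -0.11 for Wars (adjusted p = 0.579, 0.584 and 0.954), and Eprs (-0.91) and Aars (-1.63), closer to their values over both genotypes, did not pass there either (adjusted p = 0.0829 and 0.121). Leaving out deficient BMPC replicate 2 ended the calls of Eprs (-0.82), Iars (-0.999) and Wars (-1.43), leaving out deficient BMPC replicate 3 that of Wars (-1.48), leaving out sufficient BMPC replicate 2 that of Eprs (-0.998), and leaving out deficient nB replicate 3 that of Iars (-1.44).

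The falls from GCB to BMPC were wider. Qars (97541, chr9:108410336-108418272) had the largest, at -2.79 ± 0.46 on the log2 scale (adjusted p = 0.000125), with GCB at 96.4 to 105.6 FPKM. In the sufficient groups alone it was -1.19 and did not pass (adjusted p = 0.188), and in the deficient groups alone it was -4.39. By fold of means Aars fell further than Qars, 4.96-fold against 3.81-fold. Aars also passed in each genotype alone (limma adjusted p of at most 0.0174 over the alternatives). Dars (aspartate, -1.69, adjusted p = 0.00026), Eprs (-1.56, adjusted p = 0.000288), Rars (arginine, -1.82, adjusted p = 6.36e-05), Qars, Aars, Vars and Farsb (the β subunit of the phenylalanine enzyme, -1.83, adjusted p = 0.0198) had every BMPC library under every GCB library and passed. Tars (threonine) had no overlap either, with a difference of -0.92 that missed the size threshold. Over all 40 genes, 11 were lower and 3 higher (Asns, Pycr1 and Slc3a2) without overlap, where 18.1% and 5.13% of all tested genes were so placed. Lars (leucine) and Farsb lost their calls without sufficient BMPC replicate 3 (log2 difference -0.81 and adjusted p = 0.0515), and Yars without any 1 of 9 libraries. Dars did not pass in the sufficient groups alone (-1.13, adjusted p = 0.0592), and Farsb in neither genotype alone (adjusted p = 0.222 and 0.0541). Iars and Wars were also called, but not in the sufficient groups alone (limma adjusted p = 0.744 and 0.611). With only the cell types compared, both calls were lost as well.

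Sars (serine) was the only synthetase with a higher mean log2 level in BMPC than in GCB, at 94.0 ± 30.8 against 55.6 ± 7.80 FPKM (SD, n = 6 each, log2 difference 0.69, adjusted p = 0.0245, under the size threshold). Kars (lysine) and Nars (asparagine) had the highest means in each cell type, at 111 ± 27.9 and 105 ± 31.4 FPKM in nB, 208 ± 24.6 and 167 ± 11.4 FPKM in GCB, and 122 ± 56.7 and 129 ± 29.8 FPKM in BMPC, and in nB and BMPC they lay within each other's spread. In sufficient BMPC alone Hars, at 120.5 ± 33.4 FPKM, stood with them (Nars 114 ± 20.4, Kars 109 ± 59.9, SD, n = 3). The least abundant was Gars (glycine) in nB and GCB, at 11.4 and 22.2 FPKM, and Aars in BMPC, at 7.34 FPKM. Aars and Vars (7.34 ± 6.92 and 9.33 ± 4.82 FPKM, SD) lay within each other's spread in BMPC. In sufficient BMPC alone Vars was the lower, at 6.52 against 7.53 FPKM.

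Between genotypes, calls were found in BMPC only, for the synthetases Qars and Hars. In nB 0 of 40 genes passed and in GCB 0 of 40, where 0.0521% and 0% of all tested genes were called in either direction. At an unadjusted p under 0.05 limma gave 2 genes in nB and 1 in GCB, where 312 and 124 of the 11522 tested genes had such a p, and voom on recovered reads called 0 in each. Those genes were Sesn2 and Hars, higher in deficient nB by 0.95 and 0.81 on the log2 scale, and Pycr1, at -1.46 in deficient GCB. In BMPC, 2 of 40 genes were lower in deficient libraries and 0 higher, where 2.65% of all tested genes were called lower and 1.34% higher. The split by direction was not stable. It was 3 higher and 2 lower without sufficient BMPC replicate 1, 0 and 6 without deficient BMPC replicate 1, and 1 and 0 with voom. Before adjustment 15 genes had a p under 0.05, as had 2342 of the 11522 tested genes. Among the 15 were Wars (-2.91, adjusted p = 0.0836), Iars (-2.46, adjusted p = 0.0746), Rars (-1.32, adjusted p = 0.0664), Ddit4 (-1.79, adjusted p = 0.074), Aldh18a1 (1.43, adjusted p = 0.0586) and Slc3a2 (1.06, adjusted p = 0.102), which did not pass. Libraries did not overlap between genotypes for 6 genes in BMPC, higher for Aldh18a1 and lower for Ddit4, Asns, Dars, Qars and Hars, beside 3.02% higher and 7.31% lower over all tested genes. With 4 such genes in nB and 8 in GCB, the background was 8.84% and 10.6% in either direction.

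**Figure D5:**
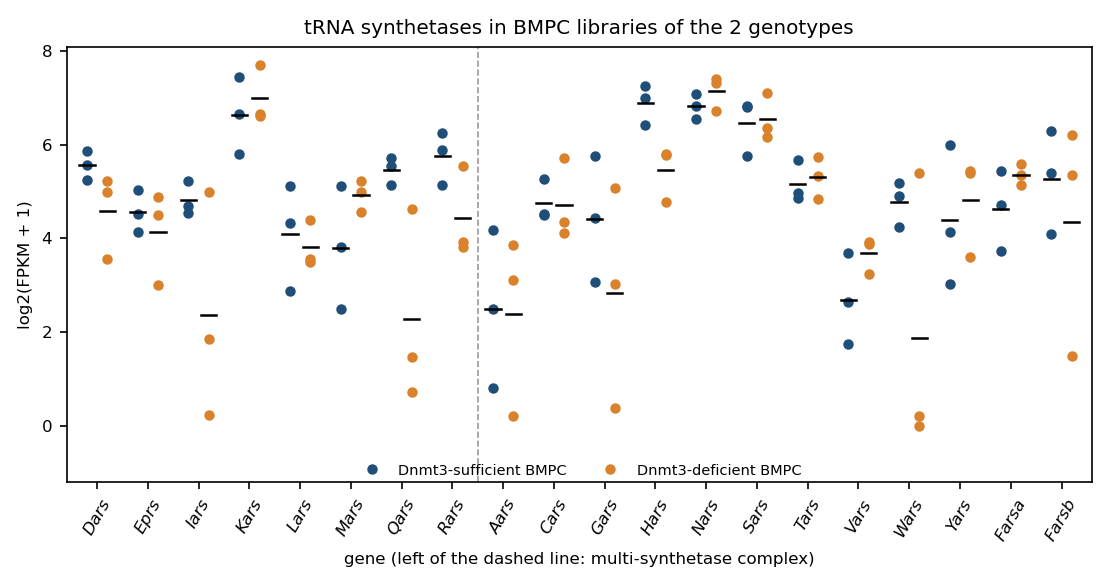
Level of the 20 cytosolic synthetases in BMPC as log2(FPKM + 1), with a point per library and colours for the genotypes (3 libraries each). The genotypes are separate for Dars, Qars and Hars, with bars at group means, and 1 or 2 deficient libraries sit near 0 for Iars, Wars, Aars and Gars.

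Qars was at 51.5, 34.1 and 45.9 FPKM in sufficient BMPC (380, 436 and 559 reads) and 23.9, 1.76 and 0.657 FPKM in deficient BMPC (131, 8 and 5 reads). All deficient values were below all sufficient ones, but replicate 1 was far from the other two. The log2 difference was -3.19 ± 0.66 (limma adjusted p = 0.0103). In nB Qars was at 56.6, 65.2 and 62.2 FPKM in sufficient and 83.3, 41.8 and 69.7 FPKM in deficient libraries, which overlap.

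Hars was at 84.6, 126 and 151 FPKM in sufficient BMPC (423, 1090 and 1246 reads) and 54.4, 55.1 and 26.6 FPKM in deficient BMPC (202, 170 and 137 reads). The genotypes were apart in BMPC by a log2 difference of -1.42 ± 0.34 (adjusted p = 0.027). In nB the order was the opposite, with 31.6, 50.8 and 24.9 FPKM in sufficient and 55.7, 64.5 and 62.4 FPKM in deficient libraries, also without overlap. The difference between these 2 genotype differences was -2.23 ± 0.49 (interaction, limma adjusted p = 0.0491). It was the only 1 of 40 genes called in that test, in which 0.555% of all tested genes were called in either direction, and 0 of 40 were called for GCB against nB (background 0%, 1 gene at an unadjusted p under 0.05 in limma, 0 in voom). In GCB Hars was at 102, 91.9 and 112 FPKM in sufficient and 94.6, 68.1 and 113 FPKM in deficient libraries, which overlap.

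Both BMPC genotype calls were lost with a quality weight per library and with voom (adjusted p = 0.175 and 0.0563 for Qars and 0.592 and 0.181 for Hars), and Hars was also lost without sufficient BMPC replicate 3 (0.0688) or deficient BMPC replicate 3 (0.0616). Library measures are given beside these calls. Deficient BMPC had 1632925, 1355231 and 2265945 reads and sufficient BMPC 2196198, 3803197 and 3629318. Summed neutrophil markers were 526, 63.4 and 141 FPKM in sufficient and 9.37, 595 and 566 FPKM in deficient BMPC, and erythroid markers 1636, 1473 and 2893 FPKM against 1157, 363 and 182 FPKM. Macrophage markers were 72.0, 87.7 and 63.5 FPKM against 98.4, 212 and 227 FPKM. Deficient replicates 2 and 3, which had the lowest Qars, Iars and Wars, had high neutrophil sums, as had sufficient replicate 1, and the lowest erythroid sums. Jchain, the joining chain of secreted antibody, took 5.38, 4.24 and 3.40% of reads in sufficient and 8.202, 9.80 and 6.26% in deficient BMPC. The summed BMPC markers were 29690, 24030 and 19040 FPKM against 43170, 51660 and 34160 FPKM. Both were without overlap. Jchain is on that marker list, with a BMPC median of 27690 FPKM, so these measures are not independent. The part of these library measures in the result was not tested.

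Genes of the same pathways outside the set were counted from lists of related genes. Over all tested genes 9.43% were called higher and 39.3% lower in BMPC than in nB, and 7.72% and 33.7% than in GCB. From nB to GCB the shares were 9.47% and 12%, and in deficient against sufficient BMPC 1.34% and 2.65%. Of 3 scaffold genes of the multi-synthetase complex, whose products hold the enzymes together, all 3 were higher in BMPC than in nB, unlike the 8 enzymes. The log2 differences were 1.21 for Aimp1, 1.17 for Aimp2 and 1.61 for Eef1e1 (limma adjusted p of at most 0.05). Against GCB 1 of 3 passed, Eef1e1 at 1.07. That call was lost in the deficient groups alone (limma adjusted p = 0.126), without deficient GCB replicate 2 and without sufficient BMPC replicate 2. From nB to GCB Aimp2 rose by 1.04, a call lost without any 1 of 4 libraries. Aimp2 was at 225, 264 and 155 FPKM in sufficient BMPC and 85.3, 27.4 and 49.2 FPKM in deficient BMPC, with nB means of 46.3 and 45.7 FPKM, so its higher BMPC level lay mostly in the sufficient libraries (genotype difference -2.08, adjusted p = 0.00683). The 17 mitochondrial synthetases, which charge tRNA for the mitochondrial ribosome, had 0 calls from nB to GCB, and 10 and 9 were lower in BMPC than in nB and GCB, with 0 higher. The largest fall was that of Hars2, at -3.92 and -3.20. Their medians were -1.39 and -1.22, beside -0.79 and -0.66 over all tested genes. In deficient BMPC 3 of the 17 were lower than in sufficient BMPC, named after their values were seen: Rars2 (-3.81), Tars2 (-2.64) and Yars2 (-2.38, adjusted p = 0.0207, 0.00718 and 0.0207). Rars2 was at 57.1, 51.0 and 79.99 FPKM in sufficient and 42.3, 0.395 and 0.473 FPKM in deficient libraries, again with replicates 2 and 3 far below replicate 1.

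Of 19 tested genes of the eIF2α pathway, 4 were higher and 1 lower in GCB than in nB, 5 higher and 4 lower in BMPC than in nB, and 5 higher and 9 lower in BMPC than in GCB. The shares over all tested genes for these and the following lists were 9.47% higher and 12% lower for GCB against nB, 9.43% and 39.3% for BMPC against nB, and 7.72% and 33.7% for BMPC against GCB. Cth, which makes cysteine from cystathionine, rose by 3.02 from nB to GCB, and Ddit3, the CHOP transcription factor, fell by 1.41. In BMPC the largest called falls were those of Eif2ak2, the kinase PKR (-2.35 from nB), and Ppp1r15a, a phosphatase subunit that reverses eIF2α phosphorylation (-2.98 from GCB). Of 18 other amino acid metabolism genes, 4 were higher and 0 lower in GCB than in nB, led by Bcat1, which transaminates branched-chain amino acids, at 3.01. In BMPC 0 were higher and 5 lower than in nB, with Prodh, which degrades proline, at -2.38, and 0 higher and 10 lower than in GCB, with Shmt1, the cytosolic counterpart of Shmt2, at -4.68. Of 10 other transporters, 5 were lower in BMPC than in nB (Slc43a2 at -1.61) and 0 passed otherwise. Of 15 genes that relay amino acid supply to mTORC1, 2 were lower in GCB (Sesn1 at -3.84). In BMPC 1 was higher and 8 lower than in nB, with Rragc at 1.75 and Mlst8 at -2.86, and 1 higher and 4 lower than in GCB, with Rragc at 1.13 and Mlst8 at -2.54. The rise of Rragc from nB was 2.94 in the sufficient groups alone and 0.56, with an adjusted p of 0.461, in the deficient groups alone. The call of Rragc against GCB was lost in 13 of 26 alternatives. These included each genotype alone, voom and leaving out any 1 of 6 libraries.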

How the data were processed

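RNA from 5000 sorted cells per library was reverse transcribed and amplified by PCR (SMARTer and Nextera kits). Per the labels and methods the authors mapped reads to mm9 with TopHat, kept single hits, counted them over exons of UCSC KnownGenes and deposited FPKM. Use of strand is not given in the sources used here, so overlapping and antisense genes are uncertain. The submitters' processing notes name Picard, R 3.2.2 and edgeR 3.12.1. The deposited table also holds the exon length of each gene and the authors' own group comparisons (fold changes and FDR), which were not used. The locus that drives Cre is not reported here. All 18 columns of values matched a library, and 0 did not.

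The members and lists were chosen with earlier results of these data known. FPKM were tested as log2(FPKM + 1) with limma 3.58.1 in R 4.3.3 (group means over all 18 libraries, intensity trend, two-sided, Benjamini-Hochberg over 11522 genes that exceeded 1 FPKM in 2 or more libraries). A call needs an adjusted p of at most 0.05 and a log2 difference of at least 1, and 8 contrasts were tested. Differences on this scale understate the change of low genes. FPKM times exon length came out as whole reads for 100% of values (tolerance 0.01), which gave reads, depth and a voom fit, and the step was tested on simulated data. Values per library were given for the called gene with the largest rise and fall in each role, for genes called by genotype and for undetected ones, and for related lists those with the largest rise and fall. Figures were drawn with matplotlib 3.10.9. The p-values measure a spread fitted in common over all 18 libraries for each gene, which may be in part technical. BMPC libraries scattered more than nB and GCB libraries, so this spread tends to be too narrow for BMPC differences. Their SE and p-values then tend to be too small. With BMPC libraries only, the limma adjusted p of the genotype difference was 0.770 for Qars and 0.718 for Hars. GCB libraries of the 2 genotypes share names; the alternatives and their effect are given in the closing section. Reads copied by PCR are not separate molecules, and a floor of 3 reads covers counting error alone.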

Additional observations from a re-analysis of the deposited data

Results flagged for a closer look

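The genotype difference of Hars differed between cell types. Its log2 difference, deficient minus sufficient, was lower in BMPC than in nB by 2.23 (the difference of differences was -2.23, limma adjusted p = 0.0491), with the 3 deficient libraries below the sufficient ones in BMPC and above them in nB. It passed by a small margin, and the alternatives that ended the call are listed with the processing.

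The genotype difference of Nupr1 (Entrez 56312), a stress-induced chromatin protein gene of the eIF2α list, also differed between BMPC and nB, by -4.98 on the log2 scale (limma adjusted p = 4.95e-06). It had 34, 95 and 65 reads in the sufficient BMPC libraries (24.7, 39.9 and 28.6 FPKM) and 0 reads in every deficient BMPC, nB and GCB library. With 3 reads per library as the floor, the sufficient BMPC mean was at least 10.9-fold higher. The interaction passed in all 24 alternatives (highest adjusted p 0.0028, with voom). Since every nB library was at 0, it holds the genotype difference in BMPC alone, with nB libraries that add no spread. Fitted to BMPC libraries only, that genotype difference did not pass (limma adjusted p = 0.647).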

How the results depend on the processing

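Over 70 results and 1760 alternative values, 1589 kept their side of the threshold, 171 lost it and 0 reversed. Genes higher in GCB than in nB numbered 13 with voom and with no minimum difference, and 7 to 9 leaving out each library in turn. Genes lower in BMPC than in nB numbered 4 with only the cell types compared and at an adjusted p of 0.01, 2 in Dnmt3-sufficient groups alone, and 4 to 9 leaving out each library (4 without deficient BMPC replicate 2). Genes lower in BMPC than in GCB numbered 9 with no filter, 8 at 0.01 and 13 to 17 leaving out each library. With sex as a covariate 5 genes were lower in BMPC than in nB, without Iars and Wars. Lars and Yars lost their calls against GCB with it. Genes changed by genotype in BMPC numbered 0 with BMPC libraries only (where 0 of 11522 genes passed), a quality weight per library, an adjusted p of 0.01 or one weight per cell type (chosen after seeing the data; Qars 0.0903, Hars 0.484), 1 with voom (Slc3a2 higher by 1.32, adjusted p = 0.0342), and 2 to 6 leaving out each library (6 without deficient replicate 1, 5 without sufficient replicate 1 or 2). The Hars interaction was 0 genes with no filter, median of ratios scaling, rescaling without Jchain, sex as a covariate, only the cell types compared, voom, a quality weight, 0.01 or one weight per cell type (adjusted p 0.0155 to 0.358 over all), and 0 to 5 leaving out each library (5 without deficient BMPC replicate 1; 0 without sufficient nB replicate 1 or 3, any deficient nB library or sufficient BMPC replicate 3). Genes higher in BMPC numbered 7 to 9 against nB and 4 to 5 against GCB leaving out each library. Over the alternatives the adjusted p of the genotype difference ran from 1.02e-06 to 0.770 for Qars and from 0.0126 to 0.718 for Hars. Median of ratios scaling moved the median of all genes from -0.66 to -0.52 for BMPC against GCB and from -0.79 to -0.69 against nB, and the BMPC genotype calls over all genes from 154 higher and 305 lower to 193 and 239. The calls of Hars and Aimp2 (GCB against nB), Eprs (BMPC against nB), Lars and Yars (BMPC against GCB) and the Hars interaction were lost under it. The causes were not tested. The GCB libraries share names across genotypes, but same-named libraries did not deviate together (correlations -8.06e-05, -0.0171 and 0.0257), and the fit with the name as a replicate block called 0 genes.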
